A study of Mus musculus with 6 samples.

Results

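The 43 genes described here encode nuclear subunits of the mitochondrial respiratory complexes II, III and IV and of the ATP synthase, complex V, together with isoforms of those subunits. They were taken by symbol alone, as every entry named Sdha to Sdhd, Uqcr with any ending, Cyc1, Cox4 to Cox8 with any letter or digit after it, or Atp5 with any ending. They are 43 of the 10361 gene names in the expression table, with 4 in complex II, 9 in complex III, 14 in complex IV and 16 in complex V. The measurements are poly-A RNA sequencing of mouse retinal ganglion cells (RGCs), the output neurons of the eye, with 2 libraries in each of 3 groups. Adult miR-1247 RGCs carried an AAV2 vector, an adeno-associated virus that transduces RGCs, that expressed a miR-1247-5p microRNA mimic. Adult control RGCs carried AAV2 with a scrambled shRNA mimic, and both adult groups were purified on Thy1 antibody and then sorted for the red fluorescent protein mCherry. E18 RGCs came from embryos of day 18, received no vector and were purified on Thy1 antibody without sorting. All mice were of the strain C57/6NCrl and of genotype WT. About 5000 cells from 10 retinas were collected for each adult condition, and about 50000 cells for E18. The labels give no age in days for the adult mice and give no word on whether libraries of 1 group are from separate animals, so the p-values below measure only library-to-library spread, which may be technical. Age, vector, sorting and number of cells cannot be told apart between E18 and the adult libraries.

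Complex II (succinate dehydrogenase) passes electrons from succinate to ubiquinone and is also an enzyme of the tricarboxylic acid cycle. Complex III passes electrons from ubiquinol to cytochrome c, and complex IV (cytochrome c oxidase) from cytochrome c to oxygen; both pump protons. Complex V (ATP synthase) lets protons flow back through a ring of c subunits in the membrane, and the rotation drives ATP synthesis in its F1 head. RGCs have long axons that are unmyelinated inside the eye, and mitochondrial ATP is a main source of energy for their firing.

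Levels are given in FPKM, which is scaled both to transcript length and to the mapped fragments of a library, so that they can be set side by side between genes. Differences are log2 fold changes with their standard errors (±) on the log2(FPKM + 1) scale, with n = 2 libraries in each group, and adjusted p-values come from limma fitted over all 9987 genes tested. A gene was called at an adjusted p under 0.05. All 43 members passed the filter of a mean of at least 1 FPKM. Each library's listed FPKM values summed to 339224 to 392238, and the depth of the libraries is unknown because the table holds no counts. Across genes, the correlation of log2 levels was 0.980 to 0.985 within a group, 0.960 to 0.962 between miR-1247 and control libraries, and 0.692 to 0.701 between the adult libraries and E18. All 11 listed RGC markers were present, and their summed level was 2060 and 2033 FPKM in adult miR-1247 libraries, 3332 and 3273 FPKM in adult control libraries, and 5246 and 5229 FPKM in E18 libraries. The sum hides both directions: 8 of the 11 were lower in adult control than in E18 RGCs and 3 were higher. Those higher were Nefh, Slc17a6 and Thy1, the target of the purification antibody. Tubb3 weighs heavily in the sum, with 276 and 272 FPKM in adult control libraries and 1412 and 1404 FPKM in E18 libraries. Of the Müller glia and astrocyte markers, 5 of 9 were listed and summed to 1825 and 1713 FPKM in adult miR-1247 libraries, 1409 and 1063 FPKM in adult control libraries, and 167.0 and 166.9 FPKM in E18 libraries. Within that list Vim went the other way, with 0.635 to 1.90 FPKM in the adult libraries and 44.5 and 41.0 FPKM in E18 libraries. Glul was uneven, with 463 and 122 FPKM in the adult control libraries. Rlbp1, Aqp4, Gfap and Slc1a3 of that list had no entry in the expression table, so their levels are unknown here. Of the amacrine cell markers, 4 of 9 were listed and summed to 394 and 434 FPKM in adult miR-1247 libraries, 297 and 321 FPKM in adult control libraries, and 227 and 243 FPKM in E18 libraries. Nearly all of the E18 sum was Pax6, which RGCs also express, at 226 and 239 FPKM in E18 libraries; the other 3, Gad2, Npy and Slc6a9, were at 17.9 to 110.0 FPKM in the adult libraries and at 0 to 1.42 FPKM in E18 libraries. Of the rod markers, 3 of 10 were listed and summed to 26.9 and 24.3 FPKM in adult miR-1247 libraries, 46.8 and 45.6 FPKM in adult control libraries, and 6.4 and 5.6 FPKM in E18 libraries. The markers looked up for cones, microglia and endothelial cells had no entry in the expression table, so their levels are unknown here. In bulk samples, fewer cells of a type and less RNA per cell cannot be told apart, and the part of these markers in the results below was not tested.

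As a group the members were strongly expressed at both ages. Their summed level was 5473 and 5491 FPKM in adult miR-1247 libraries, 5341 and 5408 FPKM in adult control libraries, and 5196 and 5295 FPKM in E18 libraries. Atp5b, the catalytic beta subunit of the F1 head, had 459.5 and 466 FPKM in adult miR-1247 libraries, 543 and 529.8 FPKM in adult control libraries, and 401 and 412 FPKM in E18 libraries. It was the highest member in every library except the first miR-1247 library, where Cox8a was higher at 482 FPKM. Cox7a1 was the lowest member in all 4 adult libraries and Cox4i2 in both E18 libraries.

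**Figure D1:**
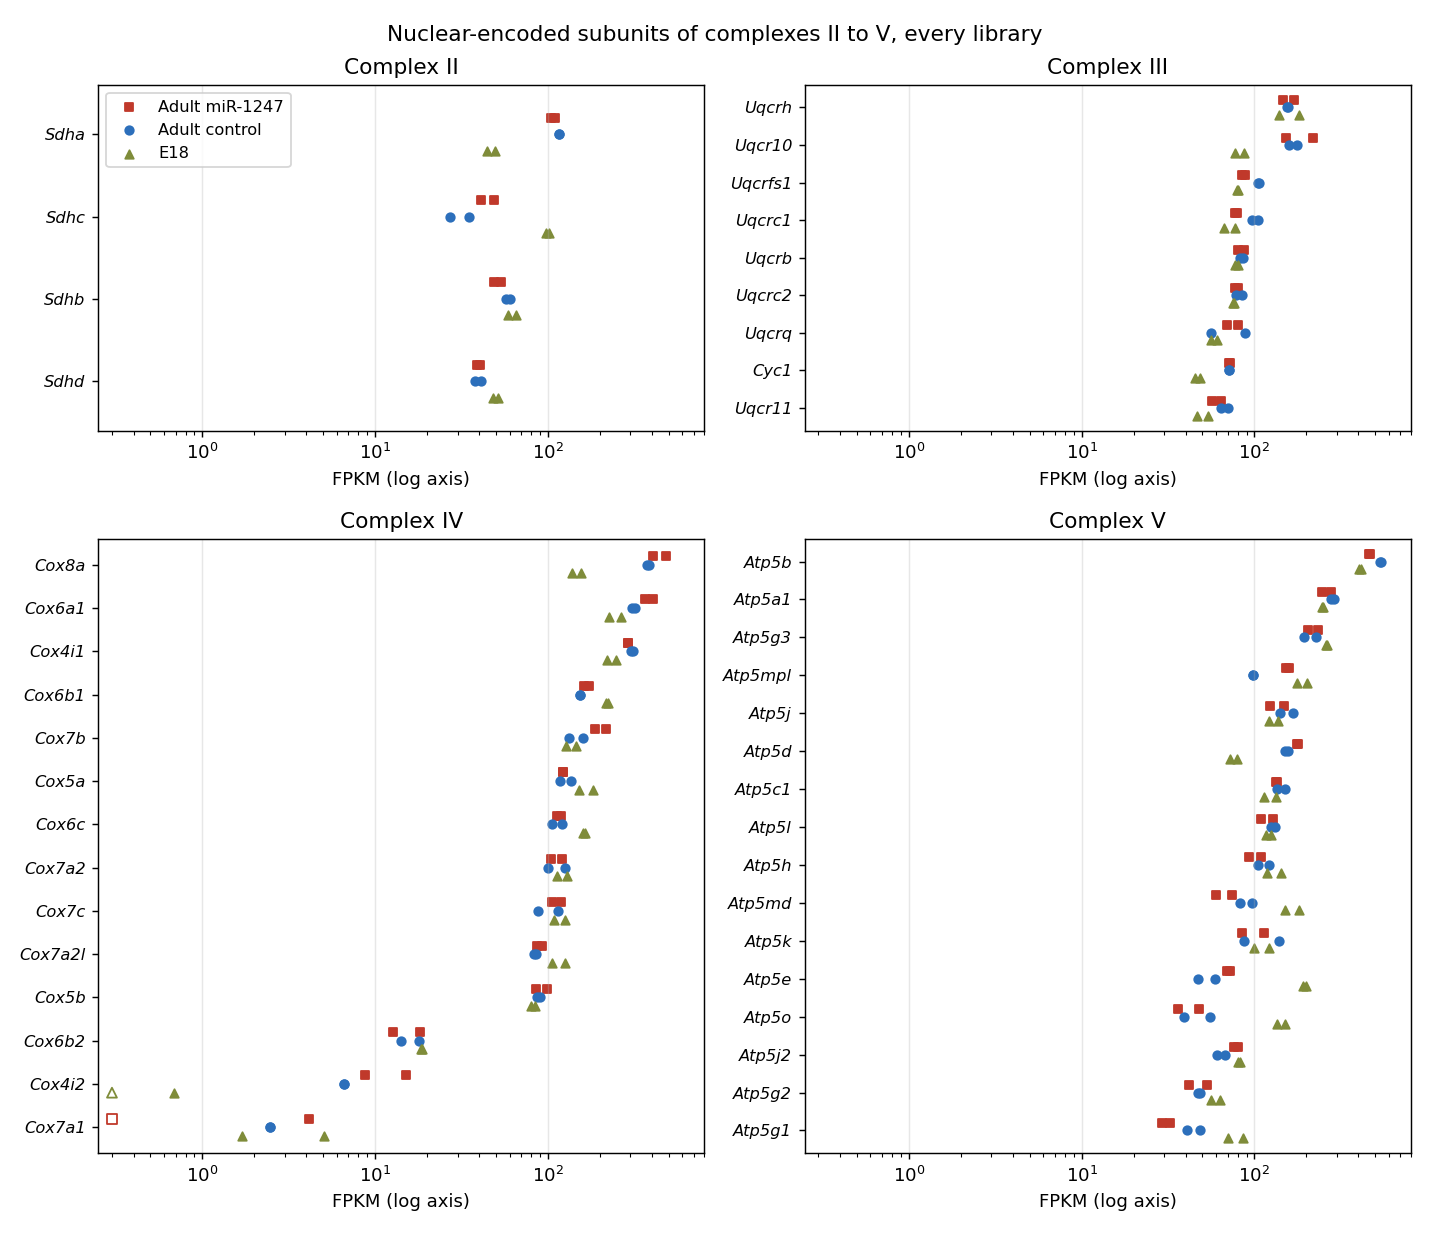
Level of each of the 43 members in each of the 6 libraries, in FPKM on a log axis, grouped by complex, with 1 symbol per library. Open symbols at the left edge are listed at 0 and drawn at 0.3 FPKM. Atp5b and Cox8a lie far to the right in the adult libraries, and Cox4i2 and Cox7a1 lie to the left of the other members.

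The first question is how the complexes differ between adult control and E18 RGCs. In adult control RGCs, 13 members were higher, 13 were lower and 17 did not pass the test, so opposite differences stood side by side within single complexes. The background is high: 70.1% of all genes tested were called, 29.8% as higher and 40.2% as lower, and the members' 26 calls of 43 are no higher a share than that. Median log2 fold change over the members was -0.00, beside -0.16 over all genes tested. The library values of adult control and E18 did not overlap for 33 of the 43 members, beside 85.5% of all genes tested. A difference of at least 2-fold was called for 5 members as higher (14.4% of all genes) and for 3 as lower (20.3%). The split depends on the scale. With totals of all libraries set equal it was 15 higher and 10 lower, and without the mitochondrial-genome entries in those totals 18 and 10. Scaling by median ratios, which brings the median of all genes to -0.02, gave 19 and 9. Over all genes tested the higher share of the calls moved as well, from 42.6% to 46.2%, 48.9% and 50.2% in that order. Among the members it moved from 50% to 60%, 64.3% and 67.9%. Under median-ratio scaling Atp5c1, Atp5j, Atp5l, Cox5b, Uqcrb and Uqcrc2 were called as well, all as higher, and Atp5g3, Atp5j2, Cox5a and Sdhd lost their calls as lower. Complex III held 5 higher and 0 lower of 9 members (median 0.40), whereas complex II held 1 higher and 2 lower of 4 (median -0.21), complex IV 4 and 4 of 14 (median -0.16), and complex V 3 and 7 of 16 (median -0.25).

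**Figure D2:**
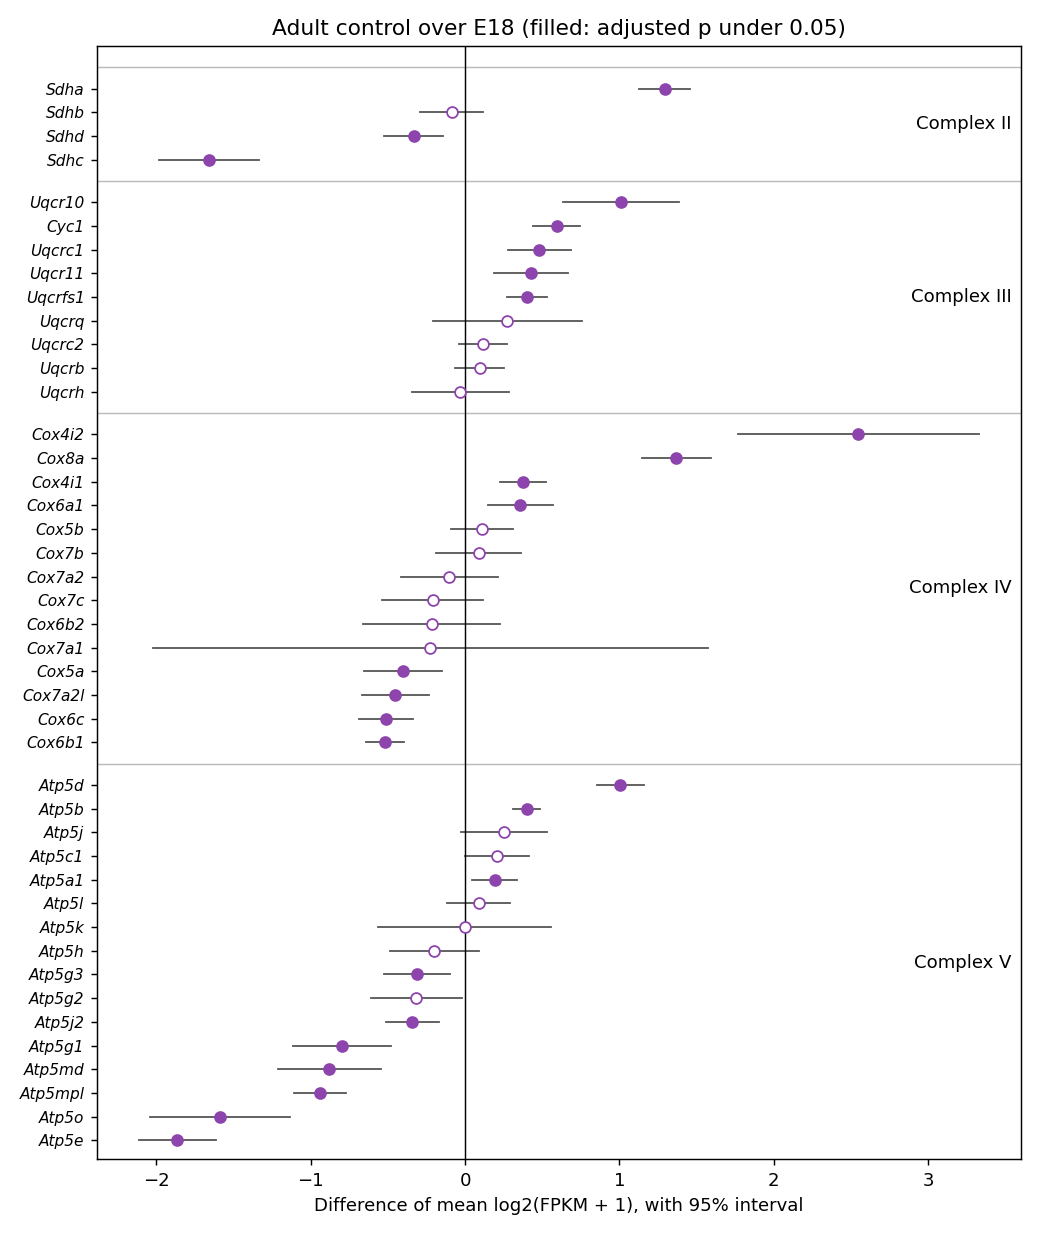
Log2 fold change of adult control over E18 for each member, with its 95% interval, on the log2(FPKM + 1) scale; filled points have an adjusted p under 0.05. Complex III lies mostly right of 0, while complex V runs from Atp5d at 1.01 to Atp5e at -1.86.

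**Figure D3:**
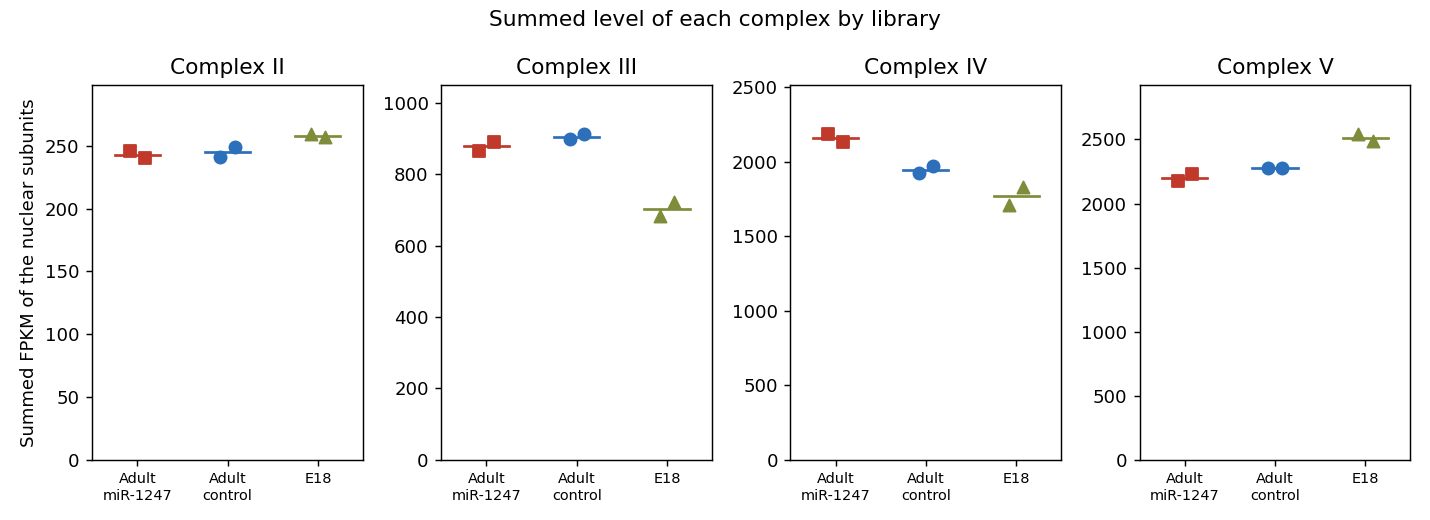
Summed FPKM of the members of each complex in each library, with adult miR-1247, adult control and E18 from left to right. Complex III and complex IV sums are higher in all adult libraries than in both E18 libraries, here and under the 3 other scalings. In complex IV, Cox8a alone differs by more than the sum between the means of adult control and E18. The lower complex II and complex V sums of the adult libraries hold on the scale shown but under none of the other 3 scalings.

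Summed over its members, complex III stood at 866 and 890.2 FPKM in adult miR-1247 libraries, 898 and 913 FPKM in adult control libraries, and 683 and 723 FPKM in E18 libraries. Complex IV summed to 2187 and 2131 FPKM in adult miR-1247 libraries, 1922 and 1970.4 FPKM in adult control libraries, and 1709 and 1828 FPKM in E18 libraries. Cox8a is part of this sum, with 384 and 373 FPKM in adult control libraries and 137 and 155 FPKM in E18 libraries. Between the means of adult control and E18, Cox8a alone differed by more than the whole sum did. The sum thus does not describe most members of complex IV, of which 4 were higher and 4 lower (median -0.16). Complex V summed to 2174 and 2229 FPKM in adult miR-1247 libraries, 2279.6 and 2275 FPKM in adult control libraries, and 2544 and 2487 FPKM in E18 libraries. That sum includes the entry that Atp5o shares with the gene Donson, at 55.6 and 39.0 FPKM in adult control libraries and 150.2 and 135 FPKM in E18 libraries. On this scale the adult libraries do not overlap with E18 for these 3 complexes. For complex III and complex IV that also held under the 3 other scalings, where the log2 ratio of the mean sums of adult control over E18 was 0.45 to 0.52 for complex III and 0.22 to 0.29 for complex IV. For complex V the groups overlapped under all 3, and the ratio moved to between -0.06 and 0.01, beside -0.14 on the scale shown. Complex II summed to 246 and 240.4 FPKM in adult miR-1247 libraries, 241 and 249 FPKM in adult control libraries, and 259.6 and 257 FPKM in E18 libraries, a log2 ratio of adult control over E18 of -0.07 that turned to between 0.01 and 0.08 under the other scalings.

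In complex II the flavoprotein and the membrane anchors went opposite ways. Sdha, the flavoprotein that oxidises succinate (chromosome 13, 74470373 to 74498399 in mm39), had 105 and 110.4 FPKM in adult miR-1247 libraries, 117 and 116 FPKM in adult control libraries, and 44.6 and 49.3 FPKM in E18 libraries. All 4 adult libraries were above both E18 libraries, and the log2 fold change of adult control over E18 was 1.29 ± 0.069 (adjusted p = 8.34e-06, limma). Sdhc, an anchor subunit that holds heme and the ubiquinone site together with Sdhd (chromosome 1, 170954734 to 170978172), had 49.0 and 40.9 FPKM in adult miR-1247 libraries, 27.1 and 34.8 FPKM in adult control libraries, and 101 and 97.1 FPKM in E18 libraries. Both E18 libraries were far above the adult ones, and the log2 fold change was -1.66 ± 0.14 (adjusted p = 5.68e-05). Sdhd, the other anchor, was lower by a smaller amount (-0.33 ± 0.080, adjusted p = 0.00877), a call that was lost without the second E18 library and under all 3 other scalings. Sdhb, which carries the iron-sulfur clusters, had 53.5 and 48.6 FPKM in adult miR-1247 libraries, 60.0 and 57.0 FPKM in adult control libraries, and 65.6 and 59.0 FPKM in E18 libraries. Its adult control and E18 values overlap (log2 fold change -0.09 ± 0.084, 95% interval -0.29 to 0.11).

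In complex III no member was lower in adult control RGCs. Of the 4 core and redox subunits, 3 were higher. Cyc1, cytochrome c1, which hands electrons to cytochrome c (chromosome 15, 76227704 to 76230460), had 71.6 and 72.3 FPKM in adult miR-1247 libraries, 70.9 and 71.7 FPKM in adult control libraries, and 45.3 and 48.4 FPKM in E18 libraries, a log2 fold change of 0.59 ± 0.063 (adjusted p = 0.000198). Its adult libraries lie within 2 FPKM of each other and above E18. Uqcrfs1, the Rieske iron-sulfur protein, was higher by 0.40 ± 0.054 (adjusted p = 0.000591), and Uqcrc1, a core protein, by 0.48 ± 0.085 (adjusted p = 0.00222). The other core protein, Uqcrc2, had 76.8 and 80.0 FPKM in adult miR-1247 libraries, 85.2 and 78.3 FPKM in adult control libraries, and 74.9 and 75.8 FPKM in E18 libraries, and did not pass (adjusted p = 0.155; 0.00897 and called higher under median-ratio scaling).

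Of the 5 supernumerary subunits of complex III, which surround the redox core, 2 were higher. Uqcr10, a small subunit next to cytochrome c1 (chromosome 11, 4651973 to 4654342), had 153 and 217 FPKM in adult miR-1247 libraries, 175 and 159 FPKM in adult control libraries, and 87.6 and 77.6 FPKM in E18 libraries. Every adult library was above both E18 libraries, with a wide gap between the 2 miR-1247 libraries, and the log2 fold change was 1.01 ± 0.16 (adjusted p = 0.00125). Uqcr11 was higher by 0.43 ± 0.10 (adjusted p = 0.00801), a call lost without the first E18 library (adjusted p = 0.0547). Uqcrb, Uqcrh (the acidic hinge protein) and Uqcrq did not pass, with log2 fold changes from -0.03 for Uqcrh to 0.27 for Uqcrq. The 2 adult control libraries were far apart for Uqcrq, at 55.8 and 88.6 FPKM, and it was called higher without the first of them.

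In complex IV, 4 members were higher, among them Cox8a and the low-level isoform Cox4i2. Cox8a, the ubiquitous form of the smallest subunit (chromosome 19, 7192518 to 7194981), had 482 and 404 FPKM in adult miR-1247 libraries, 384 and 373 FPKM in adult control libraries, and 137 and 155 FPKM in E18 libraries. The 4 adult libraries were all above E18, and the log2 fold change was 1.37 ± 0.094 (adjusted p = 2.55e-05). Cox6a1, known as the liver-type form of subunit 6a, was higher by 0.36 ± 0.088 (adjusted p = 0.00989), and Cox4i1, the common form of the large regulatory subunit 4, by 0.38 ± 0.062 (adjusted p = 0.00159). The Cox6a1 call was lost without the first adult control library and without the first E18 library, with an adjusted p of at most 0.0615. The muscle forms Cox6a2 and Cox8b had no entry in the expression table, so their levels are unknown here.

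Lower in adult control RGCs were Cox6b1 (-0.52 ± 0.051), Cox6c (-0.51 ± 0.074), Cox7a2l (-0.45 ± 0.091) and Cox5a (-0.40 ± 0.11). Cox6b1, which lies on the intermembrane side of the complex, had 173 and 162 FPKM in adult miR-1247 libraries, 153 and 152 FPKM in adult control libraries, and 217 and 222 FPKM in E18 libraries. E18 was above all adult libraries, with an adjusted p of 0.000133. Cox7a2l had 92.6 and 85.9 FPKM in adult miR-1247 libraries, 83.6 and 84.8 FPKM in adult control libraries, and 106 and 126 FPKM in E18 libraries. E18 was again on top (adjusted p = 0.00402, limma). The Cox5a call was lost without the first adult control library, without the second E18 library and under all 3 other scalings. The remaining 6 members, Cox5b, Cox6b2, Cox7a1, Cox7a2, Cox7b and Cox7c, did not pass, with log2 fold changes from -0.22 for Cox7a1 to 0.11 for Cox5b. Ndufa4, a subunit of complex IV under a complex I name, is not among the members; it had 159.7 and 145 FPKM in adult miR-1247 libraries, 145 and 144 FPKM in adult control libraries, and 257 and 265 FPKM in E18 libraries and was lower (-0.85 ± 0.059, adjusted p = 2.63e-05).

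In complex V, neighbouring subunits of the central stalk of F1 differed in opposite directions. Atp5d, the delta subunit (chromosome 10, 79977291 to 79981663), had 179 and 176 FPKM in adult miR-1247 libraries, 156 and 149.6 FPKM in adult control libraries, and 79.5 and 71.9 FPKM in E18 libraries. Atp5e, the epsilon subunit that binds beside delta at the foot of the stalk (chromosome 2, 174302865 to 174305945), had 72.2 and 69.6 FPKM in adult miR-1247 libraries, 47.2 and 59.1 FPKM in adult control libraries, and 191 and 198 FPKM in E18 libraries. For Atp5d the E18 libraries were lowest and for Atp5e they were highest, with no overlap with any adult library. The log2 fold change was 1.01 ± 0.064 for Atp5d (adjusted p = 1.72e-05) and -1.86 ± 0.10 for Atp5e (adjusted p = 1.01e-05). Of the other F1 subunits, Atp5b was higher by 0.40 ± 0.037 (adjusted p = 0.000105) and the alpha subunit Atp5a1 by 0.19 ± 0.061 (adjusted p = 0.0286). The Atp5a1 call was lost without either adult control library or either E18 library. The gamma subunit Atp5c1, the rotating shaft, did not pass (0.21 ± 0.086, adjusted p = 0.0693), but was called higher under all 3 other scalings.

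Outside F1, no member of complex V was called higher in adult control RGCs on the scale used. In the peripheral stalk, which holds F1 still against the turning ring, Atp5o (OSCP, chromosome 16, 91476153 to 91759803) had 47.7 and 36.1 FPKM in adult miR-1247 libraries, 55.6 and 39.0 FPKM in adult control libraries, and 150.2 and 135 FPKM in E18 libraries. E18 was far above the adult libraries, and the log2 fold change was -1.59 ± 0.19 (adjusted p = 0.000332). The entry of Atp5o is shared with Donson, a replication gene, so the value belongs to the locus and not to Atp5o alone. Atp5h and Atp5j, the d and F6 subunits of the stalk, did not pass (log2 fold changes of -0.20 and 0.25), but Atp5j was called higher under median-ratio scaling (adjusted p = 0.0188), with equal totals (0.0470), with equal totals without the mitochondrial-genome entries (0.0263), and with a replicate block or without the first adult control library.

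Of the 5 other membrane subunits, 3 were lower. Atp5mpl, a small proteolipid of the membrane part (chromosome 12, 111927809 to 111933493), had 152 and 158 FPKM in adult miR-1247 libraries, 97.7 and 97.6 FPKM in adult control libraries, and 201 and 176 FPKM in E18 libraries. The 3 groups do not overlap, with adult control lowest and E18 highest, and the log2 fold change of adult control over E18 was -0.94 ± 0.070 (adjusted p = 3.74e-05). Atp5md, known as DAPIT, which takes part in forming ATP synthase dimers (chromosome 19, 47054678 to 47079086), had 59.9 and 74.1 FPKM in adult miR-1247 libraries, 82.6 and 96.6 FPKM in adult control libraries, and 182 and 149.6 FPKM in E18 libraries. Its groups are ordered with adult miR-1247 lowest and E18 highest, and the log2 fold change was -0.88 ± 0.14 (adjusted p = 0.00131). Atp5j2, the f subunit, was lower by a small amount (-0.34 ± 0.071, adjusted p = 0.00472), a call lost under median-ratio scaling (adjusted p = 0.0532). Atp5k and Atp5l, the e and g subunits found at the dimer interface, did not pass (log2 fold changes of -0.00 and 0.09), though Atp5l was called higher under median-ratio scaling (adjusted p = 0.0378). Atpif1, the inhibitor that stops the enzyme from running backwards, is not among the members and was lower (-0.55 ± 0.048, adjusted p = 7.57e-05), with 217 and 207 FPKM in adult miR-1247 libraries, 202 and 195 FPKM in adult control libraries, and 286 and 297 FPKM in E18 libraries.

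Several members come in isoforms made by separate genes, and these show which copy is used. The c subunit of the ring is encoded by Atp5g1, Atp5g2 and Atp5g3, on chromosomes 11, 15 and 2. Their import sequences differ while the mature protein is the same, so the genes can be told apart in these data by silent bases alone over much of the coding part. The stretch below, 120 coding bases of each gene on its own strand from GENCODE transcripts on GRCm39, is shown to make that visible, with the 29 positions where the 3 genes differ in capitals; 28 of them are the last base of a codon.
Atp5g1: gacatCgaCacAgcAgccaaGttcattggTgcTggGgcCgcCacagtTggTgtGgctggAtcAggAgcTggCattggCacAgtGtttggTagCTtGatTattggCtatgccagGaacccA
Atp5g2: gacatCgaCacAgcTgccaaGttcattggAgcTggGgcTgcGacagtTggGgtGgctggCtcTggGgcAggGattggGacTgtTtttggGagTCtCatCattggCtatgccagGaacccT
Atp5g3: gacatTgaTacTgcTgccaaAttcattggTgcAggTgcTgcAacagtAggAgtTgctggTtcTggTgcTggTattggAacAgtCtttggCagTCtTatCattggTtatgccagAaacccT
Over the last 228 coding bases, Atp5g1 and Atp5g2 are 85.1% identical, Atp5g1 and Atp5g3 79.8%, and Atp5g2 and Atp5g3 78.5%. The longest run of identical bases between any 2 of these transcripts is 21, shorter than a read of 100 bases.

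The ring genes together stood below E18 in every adult library, here and under the 3 other scalings. Their sum was 287 and 307 FPKM in adult miR-1247 libraries, 290.1 and 314 FPKM in adult control libraries, and 388 and 408 FPKM in E18 libraries. Atp5g3 was the main copy throughout, with 71.3% and 75.8% of the sum in adult miR-1247 libraries, 66.6% and 72.1% in adult control libraries, and 67.6% and 63.3% in E18 libraries. Atp5g1 had 29.1 and 32.4 FPKM in adult miR-1247 libraries, 48.7 and 40.5 FPKM in adult control libraries, and 70.0 and 86.4 FPKM in E18 libraries. It was lower in adult control RGCs (-0.79 ± 0.13, adjusted p = 0.00169), and its share of the sum was 10.1% and 10.6% in adult miR-1247 libraries, 16.8% and 12.9% in adult control libraries, and 18.1% and 21.2% in E18 libraries. The 3 groups do not overlap in that share, which is given as a description. Atp5g3 was lower (-0.31 ± 0.090, adjusted p = 0.0188), a call lost under all 3 other scalings and without the first adult control library or either E18 library, and Atp5g2 did not pass (-0.31 ± 0.12, adjusted p = 0.0573).

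**Figure D4:**
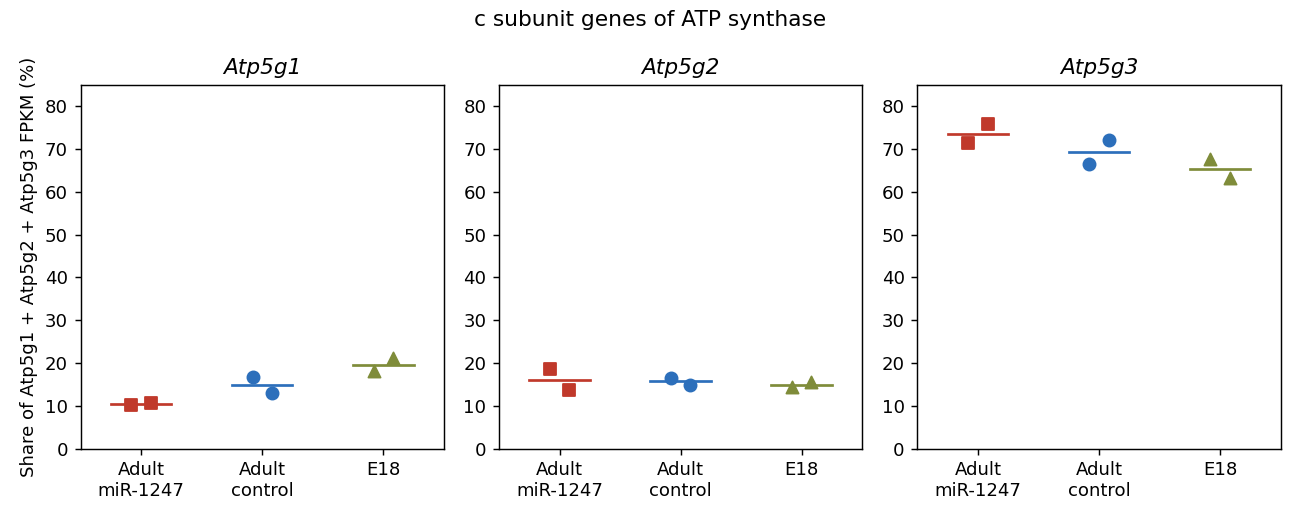
Share of Atp5g1, Atp5g2 and Atp5g3 in their summed FPKM, in percent, in each library, with adult miR-1247, adult control and E18 from left to right. Atp5g3 holds 63.3% to 75.8% in every library, and the share of Atp5g1 falls in 3 separate levels, lowest in adult miR-1247 and highest in E18.

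Subunit 4 of complex IV has the common form Cox4i1 and the form Cox4i2, known from lung and from responses to low oxygen. Cox4i2 had 15.2 and 8.79 FPKM in adult miR-1247 libraries, 6.57 and 6.58 FPKM in adult control libraries, and 0.683 FPKM and a listed 0 in E18 libraries. All adult libraries were above both E18 libraries, and the log2 fold change of adult control over E18 was 2.55 ± 0.33 (adjusted p = 0.000471). Because E18 is near 0, its size depends on the added constant: it was 4.58 with 0.1 FPKM added and 1.12 with 5 FPKM, and called with both. Cox4i2 made up 4.96% and 2.94% of the subunit 4 sum in adult miR-1247 libraries, 2.08% and 2.14% in adult control libraries, and 0.309% and 0% in E18 libraries. Cox6b2, known as the testis form of subunit 6b, was present in every library at 12.7 to 18.8 FPKM and held 7.27% to 10.5% of the subunit 6b sum, with no call. Cox7a1, the heart and muscle form of subunit 7a, was near the floor: it had 4.15 FPKM and a listed 0 in adult miR-1247 libraries, 2.47 and 2.47 FPKM in adult control libraries, and 1.69 and 5.09 FPKM in E18 libraries. The longest identical run within the Cox4, Cox6b and Cox7a pairs was 10 to 14 bases.

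Reads of some members could be shared with other sequences, and the authors' counting of such reads is not given in the sources used here. A near-identical pseudogene, at least 95% identical over at least 200 bases, was annotated for 10 members: Atp5g1, Atp5g2, Atp5h, Atp5k, Atp5l, Atp5o, Cox6c, Cox7a2l, Cox7b and Uqcrb. Their values are therefore less certain than those of the other members. Besides Atp5o, the loci of Atp5a1, Atp5j, Atp5md, Cox5a and Cox6a1 overlap the locus of another listed gene, such as Gabpa for Atp5j. The named library kit is not a strand-keeping one, so reads of such neighbours cannot be told apart.

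Of 38 assembly factors tested, 17 were higher and 5 lower in adult control RGCs (median 0.33), beside 29.8% and 40.2% of all genes tested, so that 22 of 38 were called where the background is 70.1%; that list, like those after it, was drawn up with earlier results of these data known. Cox17, the copper chaperone of complex IV, had 135 and 113 FPKM in adult miR-1247 libraries, 115 and 117 FPKM in adult control libraries, and 11.3 and 22.5 FPKM in E18 libraries (2.79 ± 0.27, adjusted p = 0.000133). Coa6, another copper-handling factor of complex IV, was higher by 1.92 ± 0.20 (adjusted p = 0.000182), and Atpaf1, which binds the beta subunit while F1 is assembled, by 1.40 ± 0.12 (adjusted p = 6.5e-05). Of the 2 called factors of complex II, Sdhaf1 was higher by 0.88 ± 0.16 and Sdhaf4, which assists Sdha, by 1.10 ± 0.25. Lower were, among others, Cox20 (-1.19 ± 0.16) and Lrpprc (-0.90 ± 0.11), which stabilises mitochondrial mRNAs. Of 13 genes of the tricarboxylic acid cycle, 8 were higher and 2 lower, with Mdh1, the cytosolic partner of the malate shuttle, higher by 1.60 ± 0.054 (adjusted p = 1.13e-06) and Dlst lower (-0.74 ± 0.084). Of 11 carriers and partners of ATP synthesis, 6 were higher and 1, Phb2, was lower; Ckmt1, the mitochondrial creatine kinase, was higher by 1.66 ± 0.070 (adjusted p = 3.09e-06), and Cycs, cytochrome c, did not pass (adjusted p = 0.727).

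Of 10 known regulators of these genes, 4 were higher and 4 lower in adult control RGCs, beside 29.8% and 40.2% of all genes tested. Ppargc1a, the coactivator PGC-1alpha, had 10.6 and 9.45 FPKM in adult miR-1247 libraries, 9.18 and 9.40 FPKM in adult control libraries, and 1.30 and 1.25 FPKM in E18 libraries (2.18 ± 0.15, adjusted p = 2.24e-05). Esrra, a nuclear receptor that PGC-1alpha acts with, was higher by 1.49 ± 0.13 (adjusted p = 8.41e-05). Lower were Nrf1 (-1.19 ± 0.31, adjusted p = 0.0128) and Gabpa (-0.59 ± 0.17, adjusted p = 0.0202), which bind promoters of many respiratory genes, and Tfam (-0.84 ± 0.23, adjusted p = 0.0144), which packages and transcribes mitochondrial DNA. The Gabpa locus overlaps that of Atp5j, which has a far higher level, so the Gabpa value is less certain. The mitochondrial genome encodes the remaining subunits of complexes III to V. Most of its genes share 1 entry, with 8848 and 8921 FPKM in adult miR-1247 libraries, 2179 and 2238 FPKM in adult control libraries, and 5869 and 5899 FPKM in E18 libraries. Cytochrome b, mt-Cytb, is listed at 0 in both adult control libraries but at 3691 and 3743 FPKM in adult miR-1247 libraries and 3069 and 3166 FPKM in E18 libraries, so no fold change is given for these entries.

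Promoters were looked up in RefSeq for GRCm38.p6, in windows of 250 bases before to 50 bases after each start, and 33 of the 43 members were matched; Atp5a1, Atp5mpl, Cox4i1, Cox4i2, Cox6c, Cyc1, Sdhc, Uqcrb, Uqcrc2 and Uqcrq were not. The letters GCGCATGCG, the core of the NRF1 motif, occurred on either strand in 6 of 33 members (18.2%), beside 4.5% of 8320 listed genes with a window. The letters CCGGAAG, the core of the ETS motif that GABP binds, occurred in 13 of 33 members (39.4%), beside 21.6%. The 3 stretches of 250 bases before the start that follow show each kind of match in members of differing call, on the strand of the gene, with matches in capitals. Cox6a1 (chr5:115348959-115349208, minus strand), higher in adult control RGCs, holds both motifs; Atp5g2 (chr15:102671048-102671297, minus strand), not called, holds the NRF1 letters; and Atp5e (chr2:174464102-174464351, minus strand), lower, holds the ETS letters in reverse.
Cox6a1: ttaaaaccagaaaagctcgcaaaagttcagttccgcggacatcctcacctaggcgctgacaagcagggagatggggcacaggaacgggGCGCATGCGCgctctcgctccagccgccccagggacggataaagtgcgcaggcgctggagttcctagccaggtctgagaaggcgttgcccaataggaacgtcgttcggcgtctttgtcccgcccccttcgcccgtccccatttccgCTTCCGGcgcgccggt
Atp5g2: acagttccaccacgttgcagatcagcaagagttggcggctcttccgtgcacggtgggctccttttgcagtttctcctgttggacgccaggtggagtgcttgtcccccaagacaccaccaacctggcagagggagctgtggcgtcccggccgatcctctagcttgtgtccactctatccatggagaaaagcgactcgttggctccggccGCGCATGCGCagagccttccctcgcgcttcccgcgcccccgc
Atp5e: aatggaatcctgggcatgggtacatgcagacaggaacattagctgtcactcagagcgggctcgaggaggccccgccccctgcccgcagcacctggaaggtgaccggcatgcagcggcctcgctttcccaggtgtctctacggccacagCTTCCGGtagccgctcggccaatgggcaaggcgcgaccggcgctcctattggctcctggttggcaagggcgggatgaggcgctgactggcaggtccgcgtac
In Cox6a1 and Atp5g2 the NRF1 letters match on both strands, 1 base apart, and these overlapping matches are in 1 block of capitals. Of the 6 members with the NRF1 letters, Cox6a1, Uqcr11 and Uqcrc1 were higher and Atp5g2, Atp5k and Atp5l were not called, a median log2 fold change of 0.22. Of the 27 members without them, 6 were higher and 10 lower, with a median of -0.20. Of the 13 members with the ETS letters, 3 were higher and 4 lower. These counts are descriptions and say nothing of binding.

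The second question is how adult miR-1247 and adult control RGCs differ. The microRNA is shown with its seed, bases 2 to 8, in capitals; its gene lies at chr12:110278094-110278115 on the minus strand of GRCm38.p6.
mmu-miR-1247-5p: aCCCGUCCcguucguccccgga
The reverse complement of the seed, GGACGGG in DNA letters, was found in the 3′ UTR of 0 of the 43 members, beside 322 of 9900 listed genes (3.3%); 3′ UTRs of the members are short, with a median of 249 bases against 1487 over the listed genes. Adult control libraries enter this comparison and the one with E18, so the 2 sets of fold changes share them.

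Between adult miR-1247 and adult control RGCs, 4 of 43 members were called, a share near the 9.75% of all genes tested: 1 was higher (3.53% of all genes) and 3 were lower (6.22%). The direction of this split depends on the processing. Median-ratio scaling gave 5 higher and 2 lower, and equal totals without the mitochondrial-genome entries 4 and 2. It was 4 and 3 with 5 FPKM added or a filter of 5 FPKM, and 1 and 4 with equal totals. Of the calls over all genes tested, 36.2% were higher in the main fit. That share moved with the processing too, to 46.6%, 47.4%, 38.1%, 37.5% and 14.9% in the same order. The members called higher in addition were Atp5e, Atp5j2 and Cox7b, with Sdhc under median-ratio scaling. Called with at least 2-fold were 0 members, beside 0.441% of all genes as higher and 0.761% as lower. The median log2 fold change was -0.00 over the members and -0.03 over all genes. Values of the 2 groups did not overlap for 22 members, beside 57.7% of all genes. At an unadjusted p under 0.05, 8 members were higher and 5 lower, beside 11.9% and 16.7% of all genes.

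**Figure D5:**
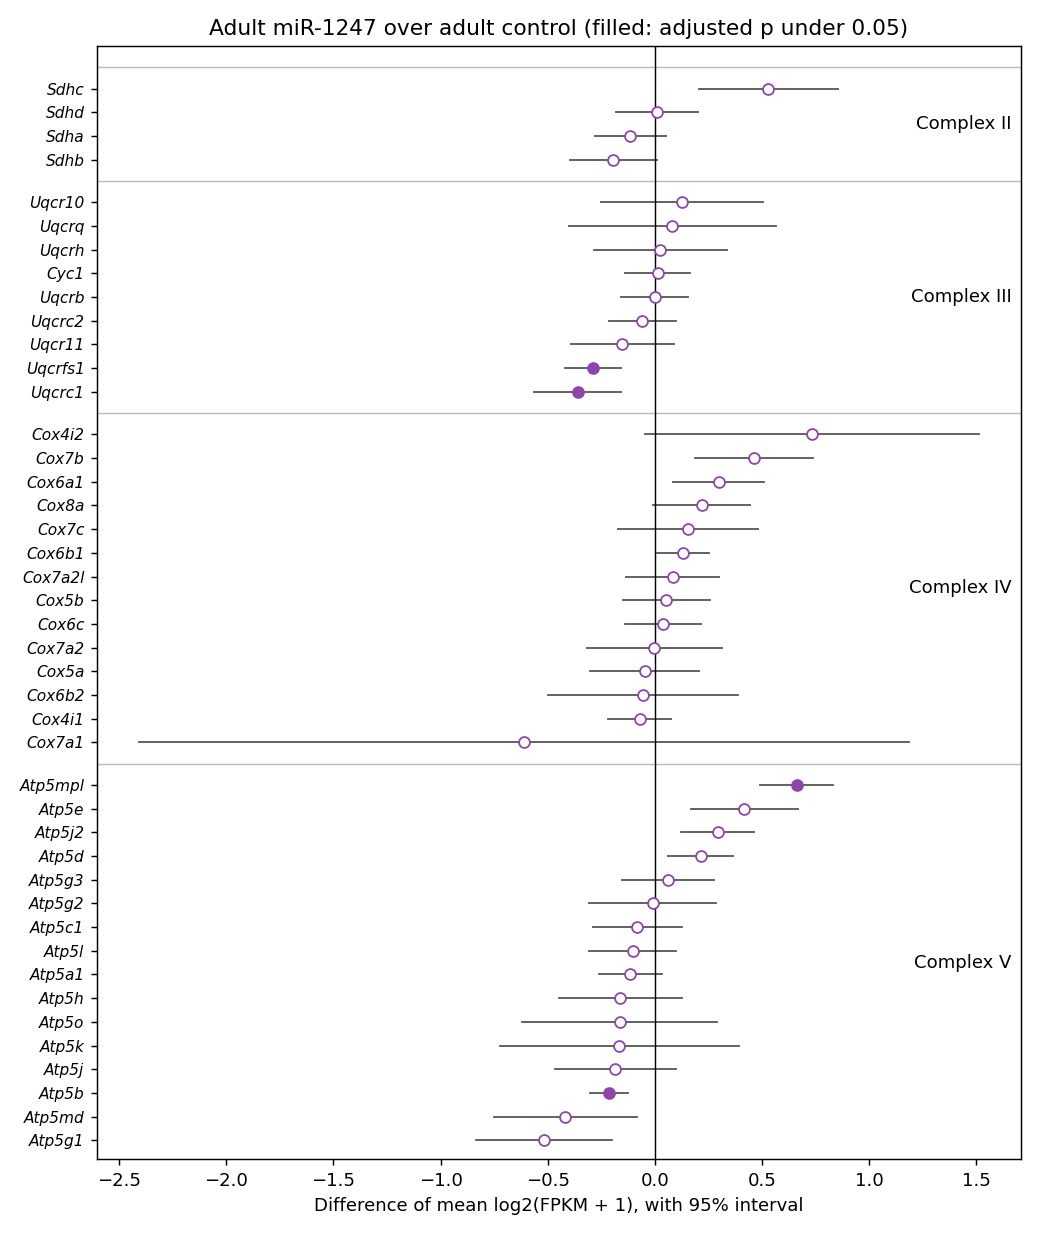
Log2 fold change of adult miR-1247 over adult control for each member, with its 95% interval, on the log2(FPKM + 1) scale; filled points have an adjusted p under 0.05. The filled points are Atp5mpl at 0.66, Atp5b at -0.21, Uqcrfs1 at -0.29 and Uqcrc1 at -0.36.

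Atp5mpl, given above, was the member called higher, with 152 and 158 FPKM in adult miR-1247 libraries against 97.7 and 97.6 FPKM in adult control libraries. The log2 fold change was 0.66 ± 0.070 (adjusted p = 0.00622, limma), and the call was lost without the second miR-1247 library (adjusted p = 0.0534). Its adult miR-1247 level lies between adult control and E18. The members called lower were Atp5b, Uqcrfs1 and Uqcrc1. Atp5b had 459.5 and 466 FPKM in adult miR-1247 libraries against 543 and 529.8 FPKM in adult control libraries (-0.21 ± 0.037, adjusted p = 0.0231, limma). Uqcrfs1 had 84.8 and 88.1 FPKM against 105 and 107 FPKM (-0.29 ± 0.054, adjusted p = 0.0275). Uqcrc1 had 77.0 and 79.7 FPKM against 97.3 and 105 FPKM (-0.36 ± 0.085, adjusted p = 0.0475). In each of these 3 both miR-1247 libraries were below both control libraries. The calls of Atp5b, Uqcrfs1 and Uqcrc1 were lost when any 1 of the 6 libraries was left out. That of Uqcrc1 was also lost under 7 of 11 other alternatives, among them median-ratio scaling, 0.1 FPKM added and no filter, that of Uqcrfs1 with a replicate block and with no variance trend, and that of Atp5b with no variance trend. Fewer members were called without 1 library. Calls over all genes tested also became far fewer then, so losses on leaving out a library are not particular to the members. All 11 RGC markers were lower in adult miR-1247 than in adult control RGCs, for example Rbpms, an RNA-binding protein that marks RGCs, with 58.4 and 48.1 FPKM against 102 and 111 FPKM. Of the 5 listed Müller glia and astrocyte markers only Dkk3 was called, as higher, with 476 and 486 FPKM against 391 and 366 FPKM. The other markers of that list, Aldoc, Apoe, Glul and Vim, were not called. Of the 4 listed amacrine cell markers only Pax6 was called, as higher (0.42 ± 0.049). The rod marker Rom1 was lower (-0.98 ± 0.18) and Reep6, also of the rod list, was not called. Mbp, the 1 listed oligodendrocyte marker, was higher (0.62 ± 0.13). The part of these markers in the 4 calls was not tested.

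Some members lay just short of the threshold. Sdhc, with 49.0 and 40.9 FPKM in adult miR-1247 libraries against 27.1 and 34.8 FPKM in adult control libraries, had a log2 fold change of 0.53 ± 0.14 with a 95% interval of 0.20 to 0.85 (adjusted p = 0.0584). Cox7b, one of the small subunits of complex IV, had 0.46 ± 0.11 with an interval of 0.19 to 0.74 (adjusted p = 0.0536), and Atp5e had 0.42 ± 0.10 with an interval of 0.17 to 0.67 (adjusted p = 0.0534). Atp5j2 had 0.29 ± 0.071 (adjusted p = 0.0514), and Atp5g1, below control in both libraries, had -0.52 ± 0.13 with an interval of -0.83 to -0.20 (adjusted p = 0.0586). Sdha and Sdhb, the catalytic subunits of complex II, had -0.11 ± 0.069 and -0.19 ± 0.084, and neither passed. None of the 14 members of complex IV was called, with a median log2 fold change of 0.07. Its sum was nevertheless 2187 and 2131 FPKM in adult miR-1247 libraries against 1922 and 1970.4 FPKM in adult control libraries, a gap made largely by Cox6a1, Cox7b and Cox8a; with equal totals the groups overlapped. Cox6a1 had 363 and 407 FPKM in adult miR-1247 libraries against 320.4 and 305 FPKM in adult control libraries (0.30 ± 0.088, adjusted p = 0.0831). Cox8a had 482 and 404 FPKM against 384 and 373 FPKM (0.22 ± 0.094, adjusted p = 0.185). Cox4i2, with 15.2 and 8.79 FPKM in adult miR-1247 libraries against 6.57 and 6.58 FPKM in adult control libraries, had a wide interval of -0.05 to 1.51 and did not pass.

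Among the partners of the complexes, Ckmt1 was lower in adult miR-1247 RGCs, with 38.5 and 40.5 FPKM against 81.7 and 78.5 FPKM in adult control libraries (adjusted p = 0.00197). The background is again 3.53% higher and 6.22% lower of all genes tested. Of the 38 assembly factors, Coa3 was higher (0.36 ± 0.072) and Coa6 (-1.48 ± 0.20) and Bcs1l, which inserts the Rieske protein into complex III (-1.01 ± 0.23), were lower. Of the 13 genes of the tricarboxylic acid cycle, 0 were higher and 3 lower, namely Cs (citrate synthase, -0.37 ± 0.081), Mdh2 (mitochondrial malate dehydrogenase, -0.39 ± 0.067) and Ogdh (-0.28 ± 0.066). None of the 10 regulators was called; Ppargc1a had an adjusted p of 0.707, and 0 of the 4 members under other names was called.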

How the data were processed

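Poly-A RNA of 6 libraries, 2 in each of 3 groups, was sequenced with paired reads of 100 bases, per the labels' protocols. Per the submitters' processing notes, the authors used HISAT2, the mm39 genome, Cufflinks and Cuffdiff, no versions given, to arrive at FPKM values; how they treated reads that match several places is not given in the sources used here. The deposited FPKM table had 1e-05 added to every entry, which was taken off. The deposited log2 ratios of group means agreed within 0.01 with recomputed ones in all 11104 entries and were used for that check only. Entries of 1 name with different loci were summed, and entries of 1 locus with several names were taken once.

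Genes with a mean of at least 1 FPKM were tested on log2(FPKM + 1) in limma 3.58.1 under R 4.3.3, with 3 group means, variances that follow the mean level and Benjamini-Hochberg adjustment over all 9987 genes; tests are two-sided. The fit was checked on simulated data. Python 3.11.15, pandas 2.3.3, NumPy 2.4.6 and Matplotlib 3.10.9 handled tables and plots. Groups follow the sample titles. Without counts, depth and counting error are unknown, and 2 libraries in a group limit the precision. The members and gene lists were chosen with earlier results of these data known. Named in full were the 10 called members with the largest difference of adult control from E18, all members called between miR-1247 and control, and the isoform families; the others named were chosen after their values were seen. Alternatives were other added constants, filters and scalings, no variance trend, loci kept apart, a replicate block, only the 4 libraries compared, and leaving out each library.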

Additional observations from a re-analysis of the deposited data

How the results depend on the processing

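For adult control over E18, the main counts of 13 members higher and 13 lower stayed within 1.5 times under every alternative run, with 22 to 27 members called, 11 to 13 higher and 10 to 14 lower when 1 library was left out. Of the 26 calls, 19 held under all alternatives run, and those that did not are named beside their values. No member's call changed direction. For adult miR-1247 over adult control the counts moved more. Called were 7 members (4 higher) with 5 FPKM added and with a filter of 5 FPKM, 7 (5 higher) with median ratio scaling, 4 higher with equal totals without mitochondrial-genome entries, and 1 (0 lower) with no variance trend. Leaving out 1 library left fewer members called and none of them lower, and calls over all genes tested became far fewer as well. Equal totals left 14.9% of all calls of this comparison as higher, against 36.2% in the fit reported. That share was 46.6% with median ratio scaling and 47.4% with equal totals without mitochondrial-genome entries. It was 38.1% with 5 FPKM added and 37.5% with a filter of 5 FPKM. With no variance trend, 3.4% of all genes tested were called, against 9.75% in the fit reported. Equal replicate numbers do not pair the libraries: deviations of same-numbered libraries correlated at -0.00812 for miR-1247 and control, 0.00353 for miR-1247 and E18, and -0.00175 for control and E18. With a replicate block, 15 members were higher and 13 lower in adult control over E18, and 2 were called in adult miR-1247 over adult control, 1 of them lower. Of all genes tested, 68.7% and 5.8% were called with that block, respectively. Set against E18, the summed level of adult control turned direction for complex II, with log2 ratios of 0.0828 with median ratio scaling, 0.0077 with equal totals and 0.055 with equal totals without mitochondrial-genome entries, and for complex V with median ratio scaling (0.0132); these sums were rescaled after the data were seen. The cause of these shifts was not tested. Depth is unknown, so no limit from counting can be given.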

Other observations

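Coding lengths, taken from GENCODE transcripts, were longer among the members that were higher in adult control than in E18 RGCs (median 519 bases) than among those that were lower (411 bases) or not called (336 bases). Across the 43 members, the log2 coding length correlated with the log2 fold change at r = 0.317 (Spearman's rho 0.349), and the log2 transcript length at r = -0.038. These correlations are across genes that share the same libraries and are descriptions. The lengths are those of 1 transcript per gene. The transcript taken for Cox8a had 459 coding bases, beside 441 for Cox5a, although Cox8a encodes the smallest subunit. The lengths may thus not be those of the transcripts expressed here, and coding length was not set against fold change over all genes. Higd1a and Higd2a, small proteins that associate with complexes III and IV and lie outside the symbol rule, were both higher in adult control RGCs, by 1.11 ± 0.12 and 0.88 ± 0.083. Higd1a had 79.6 and 75.1 FPKM in adult miR-1247 libraries, 73.9 and 62.1 FPKM in adult control libraries, and 33.8 and 28.2 FPKM in E18 libraries. Neither was called between adult miR-1247 and adult control RGCs.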
